A study of Saccharomyces cerevisiae with 10 samples.

Results

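The deletion of PTC3 in budding yeast, Saccharomyces cerevisiae, was examined on the 2 arrays of the 10 in the study that set ptc3 RNA against wild-type (wt) RNA. The 2 arrays were taken by their titles, and each open reading frame (ORF) with a value on both was given the mean of its 2 log ratios of ptc3 over wt. Both values were present for 4380 of the 6212 listed ORFs, 502 ORFs had a value on 1 array alone and 1330 had none. Type 2C protein phosphatases are metal-dependent enzymes that take phosphate off serine and threonine side chains. Ptc3 is the close paralogue of Ptc2, and the pair is known for switching off the osmostress kinase Hog1, the DNA damage checkpoint kinase Rad53 and the activating phosphate of the cell cycle kinase Cdc28.

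The study covered mutants of PTC3, PTC1, PTC2, PTC4 and PTC5, each hybridised against the same wt RNA, so all of these comparisons share their control. All strains, wt included, were grown at 28 °C in YPD, a rich glucose medium, to an absorbance of 0.6 to 0.8, and 8 µg of total RNA went into each labelled cDNA. Array 1 carried ptc3 cDNA in Cy5 and array 2 carried it in Cy3. The labels give neither the strain background nor the way the genes were disrupted, and the source label of ptc3 array 1 repeats its title in place of a strain name.

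The design names 1 RNA sample per strain, so the 2 ptc3 arrays were technical repeats, n = 2 below counts arrays, and no test of ptc3 against wt was possible. Genes were therefore taken by size. A 2-fold rule asked for a mean of at least 2-fold with each array at least 1.5-fold in that direction, and a 1.5-fold rule asked for a mean of at least 1.5-fold with each array at least 0.32 in that direction on the log2 scale. Log ratios were read as log2, although the base is not stated, and natural logarithms would make every fold larger. In whole-culture RNA, a change in the number of cells of one kind and a change in RNA per cell cannot be told apart.

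The arrays held 4774 values (array 1) and 4488 values (array 2), within the 4195 to 4802 of all 10 arrays, and the number of arrays limits the precision. The median SD of an ORF over the 2 ptc3 arrays was 0.14, and the median of the ORF means was 0.003. Most of the transcriptome lay near wt: 75.3% of ORFs had a mean within 0.2 of 0. Across ORFs other than PTC3, which are not independent replicates, the 2 arrays correlated with r = 0.13, and the sign was the same on both for 53.7% of all 4380 ORFs. Of the markers of other cell states, the 5 measured a-cell markers had a median of 0.04, the 1 measured alpha-cell marker, SAG1, was 0.24, and the 1 measured sporulation marker, SPS4, was −0.13. Of 11 stationary phase markers, 5 were measured, with a median of 0.003. The 4 auxotrophic marker genes measured lay between −0.33 and −0.004.

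**Figure D1:**
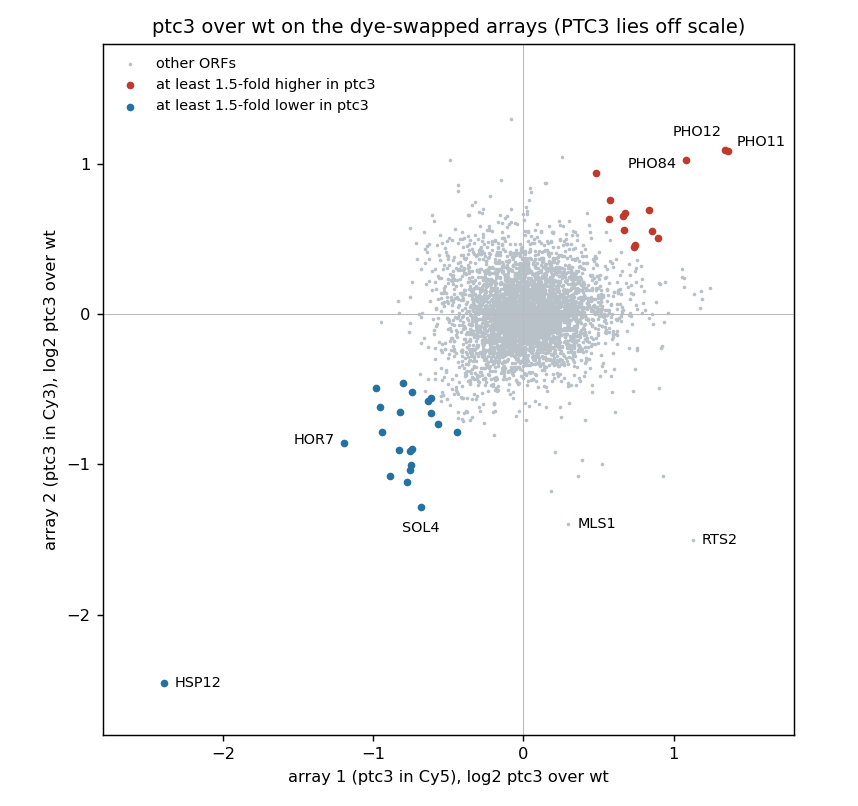
Log2 ratio of ptc3 over wt on array 2 (vertical axis) against array 1 (horizontal axis) for the ORFs with both values, 1 point per ORF, with ORFs past the 1.5-fold rule marked and PTC3 off scale. Most points lie close to 0 on both axes, HSP12 lies apart at −2.39 and −2.46, and PHO11, PHO12 and PHO84 lie apart on the higher side.

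The deleted gene gave by far the lowest ratio. PTC3 read −8.79 on array 1 and −6.91 on array 2 in ptc3, a mean of −7.85 ± 1.33 (SD, n = 2), while the arrays of the other 4 mutants read between −0.28 and 0.28. A deleted gene has no transcript to measure and spot intensities were not used here, so the size of this ratio is not a measured fold change. Of the rest of the family, the paralogue PTC2 read 0.14 and −0.11 in ptc3 (mean 0.01), and PTC1, another phosphatase of Hog1, read −0.09 and 0.41 (mean 0.16). PTC5 and PTC7, which encode mitochondrial members of the family, had means of −0.06 and 0.09. PTC6 had 0.47 and −0.16, with a mean of 0.15 ± 0.44 (SD, n = 2), and PTC4 had no value in ptc3. No other family member passed the 1.5-fold rule, and for PTC1, PTC2, PTC5 and PTC6 the sign differed between the 2 arrays.

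PTC3 lies on chromosome II, and of the 2 ORFs on each side of it by RefSeq assembly R64, 3 were near wt: YBL055C at 0.10, PTH2 at −0.04 and SHP1 at 0.07. The fourth, TOD6, which encodes a repressor of ribosome biogenesis genes, read 0.44 and 0.59 in ptc3, a mean of 0.51 ± 0.11 (SD, n = 2). TOD6 was also positive on both arrays of ptc1 (0.22 and 0.16), ptc2 (0.80 and 0.67), ptc4 (0.11 and 0.95) and ptc5 (0.71 and 0.79). The ORFs of chromosome II had a median of −0.003 (268 ORFs), and over all chromosomes the median ran from −0.02 on chromosome IV to 0.09 on chromosome I (57 ORFs). On chromosome I the 2 arrays stood on opposite sides, with a median of 0.15 on array 1 and −0.05 on array 2.

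By the 2-fold rule, 3 ORFs were higher in ptc3 (0.0685% of 4380) and 3 were lower (0.0685%). The higher ones were PHO11, PHO12 and PHO84, all of phosphate acquisition, and the lower ones were PTC3 itself, HSP12 and HOR7, the last 2 being stress-responsive genes. By the 1.5-fold rule, 14 ORFs were higher (0.32%) and 22 were lower (0.502%), 36 in all (0.822%). For the other mutants the same rule gave 72 higher and 10 lower in ptc1 (1.56% and 0.217%), 160 and 55 in ptc2 (3.92% and 1.35%), 37 and 44 in ptc4 (0.891% and 1.06%), and 45 and 96 in ptc5 (1.06% and 2.26%). Values were not centred, and ptc2 array 2 had a median of 0.23 over its ORFs, against −0.029 to 0.035 on the other arrays. The part of that offset in the ptc2 counts here and in the ptc2 list medians below was not tested.

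**Figure D2:**
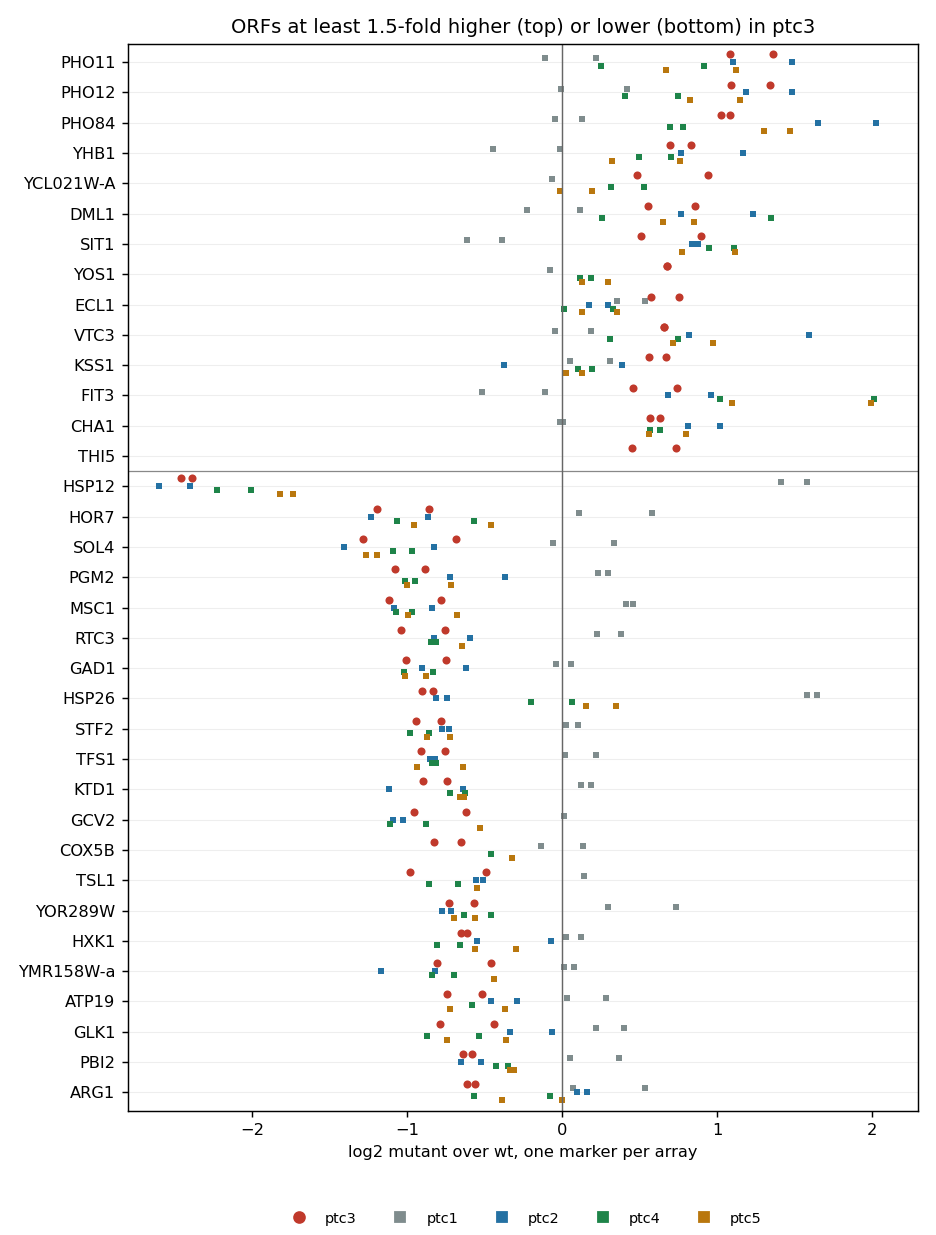
Log2 ratio over wt for genes past the 1.5-fold rule in ptc3, 1 marker per array (horizontal axis), circles for ptc3 and squares for ptc1, ptc2, ptc4 and ptc5; genes run down the page, higher ones above the line, and PTC3 is left out. HSP12 lies at −2.39 and −2.46 in ptc3 and at 1.41 and 1.58 in ptc1, and THI5 has markers for ptc3 alone.

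Genes of phosphate acquisition made up the top of the higher group. The transcription factor Pho4 drives these genes when phosphate is scarce. PHO11, a secreted acid phosphatase, read 1.36 and 1.09 in ptc3, a mean of 1.22 ± 0.20 (SD, n = 2) or 2.33-fold. Its near-identical paralogue PHO12 read 1.34 and 1.09, a mean of 1.22 ± 0.18. The 2 sequences can cross-hybridise, so their values are not separate evidence. PHO84, the high-affinity phosphate transporter, read 1.08 and 1.03, a mean of 1.06 ± 0.04 or 2.08-fold. VTC3, a subunit of the vacuolar transporter chaperone that makes polyphosphate, read 0.66 on both arrays. Its partner VTC1 had a mean of 0.46, below the 1.5-fold rule.

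Of the 20 phosphate genes listed, 17 were measured in ptc3, 14 lay above 0 and 3 below. The median was 0.22, against 0.003 over all ORFs, and it was positive on both arrays (0.28 and 0.19). The share of all ORFs above 0 was 50.5%. By the 1.5-fold rule 4 of the 17 were higher (0.32% of all ORFs) and none was lower (0.502% of all ORFs). PHO3, a constitutive acid phosphatase, had a mean of 0.44. Other members lay nearer wt, with means of 0.16 for PHO89, 0.12 for SPL2, 0.105 for VTC2 and −0.05 for PHM8. The same list had medians of 0.05 in ptc1, 0.62 in ptc2, 0.20 in ptc4 and 0.38 in ptc5. PHO84 was 1.01 higher in ptc3 than in ptc1, where it read 0.13 and −0.04, and PHO11 was 1.17 higher in ptc3 than in ptc1, where it read 0.22 and −0.11. The rise was not particular to ptc3, though all mutants were read against the same wt RNA. PHO84 had means of 1.84 in ptc2, 0.74 in ptc4 and 1.39 in ptc5, and PHO11 had means of 1.29, 0.58 and 0.90.

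Genes of the general stress response made up much of the lower group. The factors Msn2 and Msn4 induce these genes when growth is poor or cells are stressed. HSP12, a small heat shock protein that associates with membranes, read −2.39 and −2.46 in ptc3, a mean of −2.42 ± 0.05 (SD, n = 2) or 5.37-fold lower than wt. It read 1.41 and 1.58 in ptc1, and its mean was −2.50 in ptc2, −2.12 in ptc4 and −1.78 in ptc5. HSP26, a small heat shock chaperone, read −0.83 and −0.91 in ptc3, a mean of −0.87 ± 0.05, with 1.61 in ptc1, −0.78 in ptc2, −0.07 in ptc4 and 0.25 in ptc5. Both genes thus lay below wt on both ptc3 arrays and above wt in ptc1.

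Of the 40 general stress genes listed, 32 were measured, and 30 of them were below 0 in ptc3, against 49.4% of all ORFs. The list median was −0.44, at −0.35 on array 1 and −0.51 on array 2, and 9 of the 32 passed the 1.5-fold rule, all lower, against 0.502% of all ORFs lower and 0.32% higher. The other mutants had medians of 0.15 (ptc1), −0.27 (ptc2), −0.46 (ptc4) and −0.25 (ptc5). The pentose phosphate enzyme SOL4 read −0.68 and −1.28 in ptc3, a mean of −0.98 ± 0.42 (SD, n = 2). PGM2, the main phosphoglucomutase, read −0.89 and −1.08, a mean of −0.98 ± 0.13. MSC1 read −0.78 and −1.12, a mean of −0.95 ± 0.24. GAD1, glutamate decarboxylase, read −0.75 and −1.01. These 4 genes had the next largest means of the list after HSP12. HXK1 (−0.61 and −0.65) and GLK1 (−0.44 and −0.79), which phosphorylate glucose, also passed the 1.5-fold rule. The stress-induced catalase CTT1, at −0.19, and the disaggregase HSP104, at −0.19, did not. HSP12 and HSP26 are also stationary phase markers, and the other 3 measured markers of that state had means of 0.14 (SNZ1), 0.08 (ADY2) and 0.003 (SPG4) in ptc3. Whether culture density differed between the strains was not tested.

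Since Ptc3 is known as a phosphatase of Hog1, genes that osmostress induces through that kinase were described next. Of 19 such genes, 14 were measured, 10 below 0 and 4 above, with a median of −0.22. By the 1.5-fold rule 4 were lower (0.502% of all ORFs) and none was higher (0.32% of all ORFs). HOR7 read −1.20 and −0.86 in ptc3, a mean of −1.03 ± 0.24 (SD, n = 2). RTC3 read −0.76 and −1.04, and TFS1, an inhibitor of carboxypeptidase Y, read −0.76 and −0.91. HSP12, in the general stress list as well, was the fourth. CTT1, at −0.19, is also in both lists. GPD1, DAK1, PNS1 and GRE2 had means of −0.31, −0.12, 0.05 and 0.04. The glycerol-3-phosphatases differed in sign: GPP2, the osmostress-induced form, read −0.45 and −0.40 in ptc3 and GPP1 read 0.36 and 0.29. The list median was 0.13 in ptc1, −0.01 in ptc2, −0.29 in ptc4 and −0.18 in ptc5. The genes of the kinase pathway itself stayed near wt. Of 22 listed, 16 were measured, the median was 0.04 and the means ran from −0.13 (HOT1) to 0.27 (PTP3, a tyrosine phosphatase of Hog1).

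Reserve carbohydrate genes leaned the same way with smaller values. Of 22 trehalose and glycogen genes, 16 were measured in ptc3, 11 below 0 (against 49.4% of all ORFs), with a median of −0.18. TSL1, a subunit of trehalose synthase, read −0.98 and −0.49. It passed the 1.5-fold rule, as did PGM2. GSY2, glycogen synthase, and GLC3, the glycogen branching enzyme, each had a mean of −0.53, and TPS1, trehalose-6-phosphate synthase, had −0.48. None of these 3 passed the rule. PGM2, TSL1, GSY2, GLC3, TPS1 and TPS2 are in the general stress list as well, so the lists are not separate evidence. The measured members outside that list lay on both sides of wt, with means from −0.43 (UGP1) to 0.27 (GAC1).

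Respiratory chain and ATP synthase genes were low as a group, with few large values. Of 42 genes, 35 were measured in ptc3 and 34 of those had a mean below 0, against 49.4% of all ORFs. The median was −0.35, at −0.32 on array 1 and −0.36 on array 2. It was 0.07 in ptc1, −0.27 in ptc2, −0.42 in ptc4 and −0.45 in ptc5. COX5B, the hypoxic form of a cytochrome c oxidase subunit, read −0.83 and −0.65 in ptc3. The ATP synthase subunit ATP19 read −0.74 and −0.52. These 2 of the 35 passed the 1.5-fold rule, against 0.502% of all ORFs lower by that rule. The cytochrome bc1 subunits QCR10 and QCR9 had means of −0.55 and −0.51. NDE1, an external NADH dehydrogenase, was the 1 member above 0, at 0.18. Genes of mitochondrial ribosomal proteins shared the sign: 46 of 54 measured were below 0, with a median of −0.18, and none passed the 1.5-fold rule. Among 18 tricarboxylic acid cycle genes, 14 were below 0 and the median was −0.18.

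**Figure D3:**
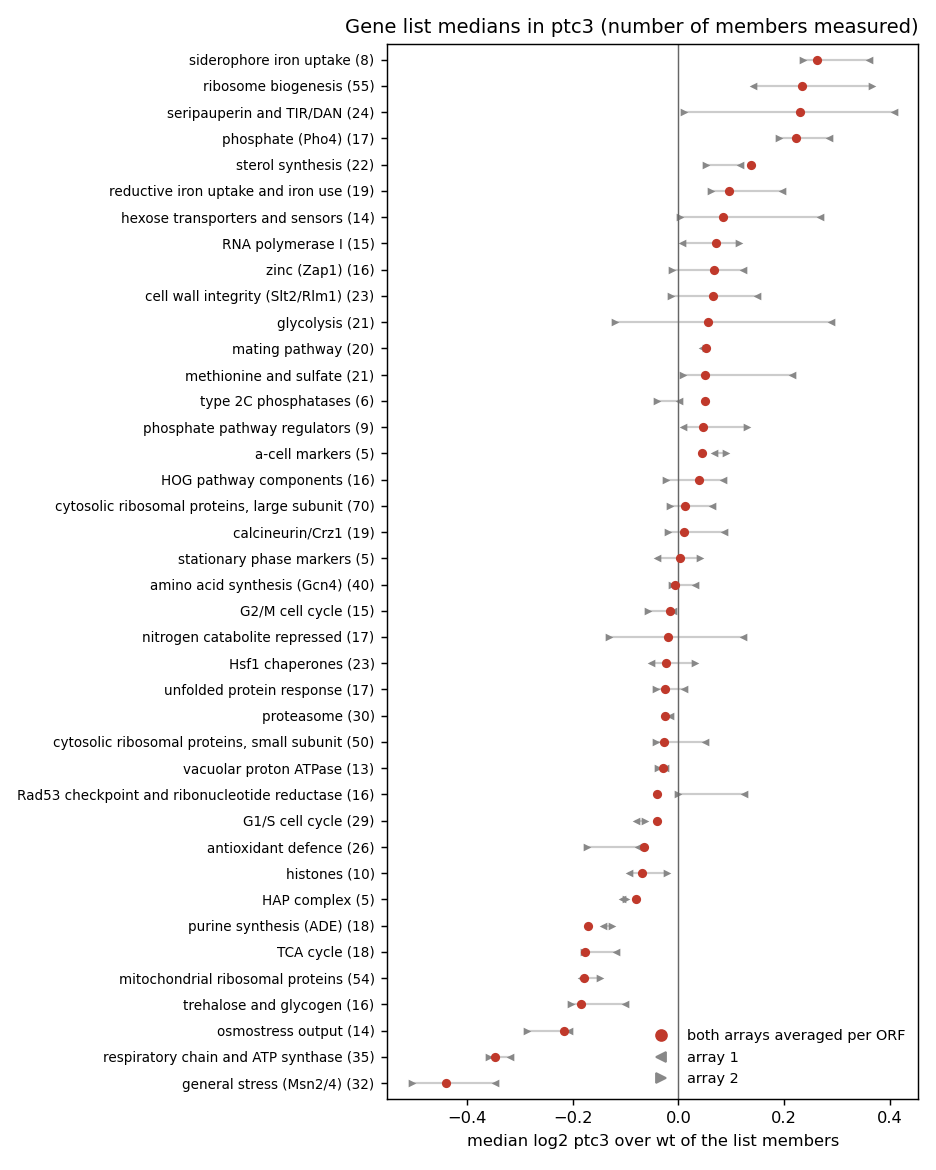
Median log2 ratio over wt of the 40 gene lists with at least 5 measured members in ptc3 (horizontal axis), with circles for the 2 arrays averaged per ORF and triangles for each array. The general stress list is lowest in ptc3 at −0.44, the siderophore list is highest at 0.26, and the cytosolic ribosomal protein lists lie at 0.01 and −0.03.

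The siderophore iron uptake and ribosome biogenesis lists lay on the higher side. Of 11 genes of siderophore iron uptake, 8 were measured in ptc3, 7 above 0 (against 50.5% of all ORFs), with a median of 0.26. SIT1, a siderophore transporter, read 0.90 and 0.51, a mean of 0.70 ± 0.28 (SD, n = 2). FIT3, a wall mannoprotein that retains siderophores, read 0.74 and 0.46 in ptc3 and had means of 1.51 in ptc4 and 1.55 in ptc5. The list medians of the other mutants were −0.22 (ptc1), 0.52 (ptc2), 0.65 (ptc4) and 0.61 (ptc5). A separate list of reductive iron uptake and iron use had a median of 0.095 in ptc3. Of its 19 measured genes, 13 were above 0 and 6 below, and none passed the 1.5-fold rule. Of 62 ribosome biogenesis genes, 55 were measured and 50 were above 0 in ptc3. Their median of 0.23 was made of 0.14 on array 1 and 0.37 on array 2, and none passed the 1.5-fold rule. NOP12 had the highest mean of the list at 0.61 but read 1.18 and 0.04 on the 2 arrays. YTM1, of large-subunit assembly, had a mean of 0.49. The median of ribosome biogenesis genes was −0.08 in ptc1, 0.47 in ptc2, 0.39 in ptc4 and 0.41 in ptc5.

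Seripauperin genes (PAU) with the TIR and DAN wall mannoprotein genes had a median of 0.23 in ptc3. Of 24 measured members, 23 were above 0, against 50.5% of all ORFs. The 2 arrays differed, at 0.41 on array 1 and 0.01 on array 2, so the median rested on array 1. The other mutants had medians of 0.00 (ptc1), −0.77 (ptc2), −0.23 (ptc4) and −0.59 (ptc5). The PAU genes are nearly identical to one another, and a single transcript could give signal at several of these spots.

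Lists tied to the other known targets of Ptc3 stayed close to wt. Of 23 genes of the Rad53 checkpoint and ribonucleotide reductase, 16 were measured in ptc3, with a median of −0.04. DUN1, the kinase downstream of Rad53, read 0.36 and 0.24. DDI2, a cyanamide hydratase gene induced by DNA damage, read 0.80 and 0.16, while DDI3 of the same list read 0.21 and −0.32. RNR4, a ribonucleotide reductase subunit, had a mean of 0.18. None passed the 1.5-fold rule. The G1/S and G2/M cell cycle lists had medians of −0.04 and −0.02. Among 10 measured histone genes, 9 were below 0, against 49.4% of all ORFs, with a median of −0.07. Cytosolic ribosomal protein genes had medians of −0.03 (50 small-subunit genes) and 0.01 (70 large-subunit genes).

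KSS1, the mitogen-activated protein kinase of filamentous growth, was the 1 mating pathway gene past the 1.5-fold rule. It read 0.67 and 0.56 in ptc3, a mean of 0.61 ± 0.08 (SD, n = 2), and its means were 0.18 in ptc1, 0.005 in ptc2, 0.15 in ptc4 and 0.08 in ptc5. FUS3, the mating kinase related to it, had a mean of 0.37 in ptc3, and the list of 20 measured genes had a median of 0.05. Against the mean of the other 4 mutants KSS1 was 0.51 higher in ptc3 (SE 0.15), which did not pass limma's test described below. The cell wall integrity list, whose median was 0.71 in ptc1, had a median of 0.06 in ptc3 over 23 of 31 genes.

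The remaining higher genes of the 1.5-fold rule had varied roles. YHB1, a flavohaemoglobin that detoxifies nitric oxide, read 0.83 and 0.70. ECL1, a gene linked to chronological lifespan, read 0.58 and 0.76. CHA1, the catabolic serine and threonine deaminase, read 0.57 and 0.64. YOS1, of transport from the endoplasmic reticulum to the Golgi, read 0.68 on both arrays, and DML1, implicated in mitochondrial inheritance, read 0.86 and 0.56. THI5, of thiamine synthesis, read 0.74 and 0.45, was measured in ptc3 alone and belongs to a family of near-identical genes. YCL021W-A read 0.48 and 0.94. Several of these genes were also above wt in ptc2, ptc4 and ptc5, read against the same wt RNA. Their means there, in that order, were 0.97, 0.60 and 0.54 for YHB1, 0.92, 0.60 and 0.68 for CHA1, and 0.999, 0.80 and 0.75 for DML1. ECL1 had smaller means of 0.24, 0.17 and 0.24, and YOS1 had 0.15 in ptc4 and 0.21 in ptc5.

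Among the remaining lower genes, GCV2, a subunit of glycine decarboxylase, read −0.96 and −0.62 in ptc3. STF2, a stress-protective hydrophilin, read −0.94 and −0.78, and KTD1, which defends cells against a killer toxin, read −0.74 and −0.89. All of them were low in other mutants too, read against the same wt RNA. In ptc1, however, the means were 0.07 for STF2 and 0.16 for KTD1. Means in ptc2, ptc4 and ptc5 were −0.75, −0.92 and −0.795 for STF2, and −0.88, −0.67 and −0.645 for KTD1. GCV2 had means of −1.06 in ptc2 and −0.99 in ptc4. Purine synthesis genes had a median of −0.17 in ptc3 over 18 measured genes, and of the other mutants ptc1, ptc4 and ptc5 had lower medians, at −0.25, −0.24 and −0.31. Within that list MTD1, an enzyme of one-carbon metabolism, had a mean of −0.53 and GUA1, GMP synthase, one of 0.53.

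The single test that the design allowed set ptc3 against the mean of ptc1, ptc2, ptc4 and ptc5, with limma fitted to the 5 per-mutant means of 3606 ORFs and Benjamini-Hochberg adjustment. It has 3 residual degrees of freedom, and nothing in the labels says that extracts of a strain came from separate cultures, so its p-values measure only the spread between these samples. PTC3 was called, 0.0277% of the ORFs tested. As PTC3 is the gene deleted in ptc3, its call was fixed by the genotype. It fell by 7.88 (SE 0.17 by limma). That SE comes from the spread of the other 4 mutants, since ptc3 enters as a single mean, and does not hold the difference between its own arrays. No ORF rose, and 83 ORFs (2.302%) had an unadjusted p under 0.05, a level that 5% would reach by chance. The next ORFs by p did not pass. REC104, of meiotic recombination, differed by −0.93 (ptc3 minus the others) and YLR460C by 0.78, both with adjusted p = 0.831.

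HSP30, a plasma membrane protein that restrains the proton pump Pma1, stood apart in level from the other mutants. It read 0.14 and −0.10 in ptc3, a mean of 0.02 ± 0.17 (SD, n = 2), and read −0.74 and −0.77 in ptc1, −1.67 and −1.09 in ptc2, −1.51 and −1.15 in ptc4, and −1.71 and −1.75 in ptc5. Both ptc3 arrays were above all 8 others. The difference from the mean of the other 4 mutants was 1.32 (SE 0.30, adjusted p = 0.976 by limma), so it did not pass. With ptc1 left out of the fit, limma gave a difference of 1.499 (SE 0.18, adjusted p = 0.0182), so the call depended on whether ptc1 was included.

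**Figure D4:**
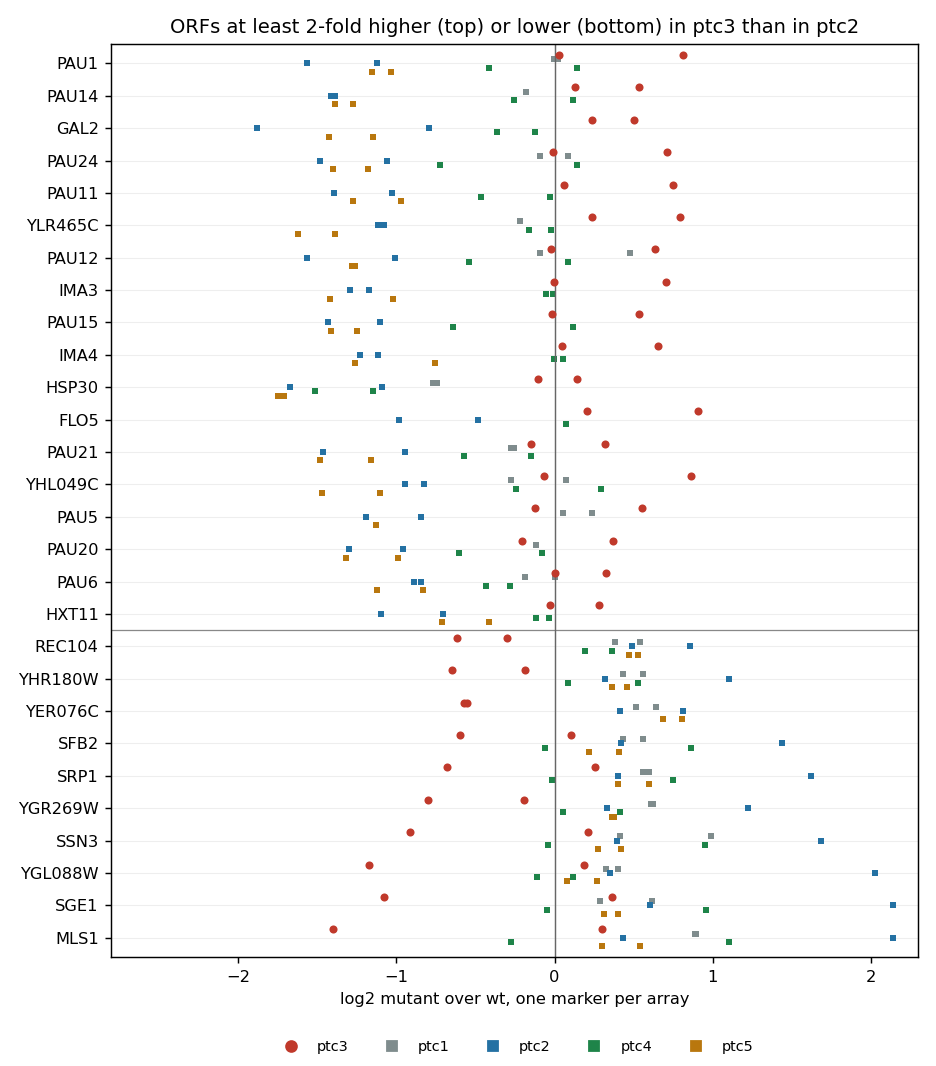
Log2 ratio over wt for the ORFs at least 2-fold higher (above the line) or lower (below it) in ptc3 than in ptc2, 1 marker per array, circles for ptc3 and squares for the other mutants. PTC3 is left out of the plot. PAU1 and GAL2 lie higher in ptc3 on both arrays, and MLS1 lies apart mainly on array 2, at −1.40 in ptc3 and 2.14 in ptc2.

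The paralogue mutants were set side by side, with no test, by counting ORFs whose means differed at least 2-fold and whose 2 ptc3 arrays lay wholly above or below the 2 ptc2 arrays. Of 3902 ORFs, 18 were higher in ptc3 (0.461%) and 11 were lower (0.282%). Of the 18 higher ones, 10 were PAU genes, whose near-identical sequences make them less than 10 separate measurements. PAU1 read 0.81 and 0.03 in ptc3, against −1.12 and −1.57 in ptc2, a difference of 1.76. On array 2 its ptc3 value was thus near wt. PAU14 differed by 1.73. GAL2, the galactose transporter, read 0.50 and 0.24 in ptc3, against −1.88 and −0.80 in ptc2. The isomaltase genes IMA3 and IMA4 differed by 1.58 and 1.52, and the flocculin gene FLO5 by 1.29. HSP30 was also in this group, 1.40 higher in ptc3.

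The lower genes of that comparison other than PTC3 rested largely on array 2. MLS1, malate synthase, read 0.30 and −1.40 in ptc3, against 0.43 and 2.14 in ptc2. SGE1, a multidrug transporter, read 0.36 and −1.08 in ptc3, against 0.60 and 2.14 in ptc2. SSN3, the kinase of the Mediator complex, read 0.21 and −0.92 in ptc3, against 0.40 and 1.68 in ptc2. YER076C lay apart on both arrays, at −0.55 and −0.575 in ptc3, against 0.42 and 0.81 in ptc2. With array 1 of each mutant alone, PTC3 was the 1 ORF lower in ptc3. The ptc2 array 2 as a whole had a median of 0.23, and its part in these differences was not tested. HSP12 and HSP26 were near their ptc2 values, with differences of 0.08 and −0.09.

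Against ptc1, 6 ORFs of 4237 were higher in ptc3 (0.142%) and 26 were lower (0.614%). The difference, ptc3 minus ptc1, was −3.92 for HSP12 and −2.48 for HSP26, and YPS3, a wall aspartyl protease, read 0.34 and −0.21 in ptc3, against 1.83 and 2.00 in ptc1. SLT2, the kinase of the cell wall integrity pathway, read 0.01 and 0.21 in ptc3, against 1.10 and 1.31 in ptc1. PTC1 itself was 2.08 higher in ptc3 than in its own mutant. The others higher in ptc3 were SIT1, PHO11, PHO84, PHO12 and GFD2.

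Against ptc4, 1 ORF of 3928 was higher in ptc3, HSP30 (0.0255%), and 1 was lower, PTC3 (0.0255%). Against ptc5, 25 ORFs of 3932 were higher in ptc3 (0.636%) and 3 were lower (0.0763%). YLR465C differed most of the higher ones after PTC5 itself, reading 0.79 and 0.24 in ptc3, against −1.62 and −1.39 in ptc5. PUT4, the proline permease, read 0.66 and 0.02 in ptc3, against −1.55 and −1.40 in ptc5. The lower ones were PTC3, YER076C and HSP26. HSP26 read −0.83 and −0.91 in ptc3, against 0.35 and 0.16 in ptc5. Some genes named above are covered by no naming rule and were chosen after their values were seen. They are CTT1, DAK1, DDI3, FLO5, GAC1, GFD2, GPD1, GPP1, GRE2, HOT1, IMA3, IMA4 and NDE1. PHM8, PHO3, PHO89, PNS1, SLT2, SPL2, TPS2, UGP1, VTC2, YER076C and YPS3 were chosen in the same way.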

How the data were processed

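The authors deposited log ratios per ORF and array, here taken as log2 of mutant over wt. For the log base, scanner and normalization the sources used here state nothing. Per the labels, spots under 120 µm across or under 150 intensity units in Cy3 and Cy5 were left out. The sign was taken from the labels and from PTC3, negative on both ptc3 arrays of opposite dye. Values were used as deposited. Of 6212 identifiers, 5662 matched a locus tag of RefSeq assembly R64 and 550 kept their deposited name. The array build is not named, so no coordinates are given, and sequences were not used here.

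Genes past the size rules and gene lists were described without a test, and ptc3 was tested against the mean of the other mutants with limma 3.58.1 in R 4.3.3, at an adjusted p of 0.05. The fit was run on simulated data whose mutants varied independently of one another, so that run does not cover mutants that change together. An array number stands for a dye orientation. Subtracting array 2 from array 1 gave values that correlated across ORFs between ptc3 and every other mutant (r from 0.16 to 0.42). The main fit used per-mutant means without a block, and the array number entered only the alternatives. The gene lists, 43 in all, and the comparisons were chosen with earlier results of these data known. Named are the phosphatase genes, genes past the 2-fold rule, up to 15 higher and 15 lower genes past the 1.5-fold rule, up to 5 members of each list, up to 6 each way against the other mutants and against ptc2, the neighbours of PTC3, and 6 ORFs whose arrays disagree most. Alternatives were centring each array, single arrays, other rules on missing values and fold, reading the values as natural logarithms, removing a dye effect, robust moderation, array-level fits with and without a block, and leaving out each mutant.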

Additional observations from a re-analysis of the deposited data

Results flagged for a closer look

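PTC3 differed between ptc3 and the mean of the other 4 mutants by −7.88 by limma, which the deletion itself fixed in advance. Among the genes named and the ORFs at least 2-fold apart from another mutant, some had every ptc3 array at least 0.32 to one side of wt and every array of another mutant at least 0.32 to the other. These differences were not tested. The difference, ptc3 minus ptc1, was −3.92 for HSP12, −2.48 for HSP26, −1.38 for MSC1, −1.05 for GOR1 and −0.92 for QCR10, all lower in ptc3. It was 1.202 for the siderophore transporter SIT1 and 1.01 for GFD2, both higher in ptc3. YER076C differed by −1.14 from ptc1, −1.17 from ptc2 and −1.31 from ptc5. No group had 4 or more samples, so single arrays were not examined for standing apart from their group.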

How the results depend on the processing

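No ORF past the 1.5-fold rule and no list with a median at least 0.2 from 0 had opposite signs on the 2 arrays, which for the ORFs follows from the rule. Of the 231 genes named, however, 47 had opposite signs, as had 13 of 40 list medians (glycolysis among them). Size-rule counts moved with the rule. Reading the values as natural logarithms gave 7 higher and 15 lower ORFs by the 2-fold rule, and 60 and 75 by the 1.5-fold rule. Taking ORFs with a value on at least 1 array gave 27 and 42 by the 1.5-fold rule, and dropping the minimum on single arrays gave 25 higher. Single arrays called 6 to 14 higher and 4 to 12 lower by the 2-fold rule, and 58 to 117 and 58 to 83 by the 1.5-fold rule. Of the 14 higher and 22 lower ORFs of that rule, 9 and 17 remained on array 2 alone, and 11 and 20 on array 1 alone. Removing the dye effect of the other mutants, which leaves means unchanged, kept 12 and 22 and added TIR1 and YJR027W. DML1 was lost at 1.12 and 0.29 on the 2 arrays, and THI5 because no other mutant measured it. Between 2 and 6 lists had a median at least 0.2 above 0 on single arrays, against 4 on both. With the array number as a replicate block, arrays as samples gave 0 higher and 1 lower ORF against the other mutants, the same counts as without it. A fit with each mutant its own mean and that block, chosen after seeing the data, gave 12 higher and 9 lower (HSP12, HSP26 and HSP30 among them). Its spread is that of technical repeats. Leaving out ptc1 gave 1 higher ORF, HSP30. Centring the arrays left 3 ORFs higher than in ptc1. On single arrays the counts of ORFs higher and lower than in each other mutant were 12 to 18 and 24 to 57 for ptc1, 21 to 52 and 1 to 116 for ptc2, 2 to 9 and 2 to 25 for ptc4, and 20 to 83 and 5 to 18 for ptc5. The cause of these shifts was not tested. Spot intensities were not used here, so dim and bright genes could not be told apart.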

Other observations

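Several lists outside the comparisons above had small medians in ptc3. Sterol synthesis genes had a median of 0.14, with 16 measured members above 0 and 6 below. Zinc-regulated genes had a median of 0.07. Glycolytic genes had a median of 0.06, at 0.29 on array 1 and −0.12 on array 2. Chaperone genes of Hsf1 had a median of −0.02 in ptc3, against 0.41 in ptc2, and HSP78, a mitochondrial disaggregase, was the member farthest from 0 in ptc3, at −0.48.

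Some ORFs changed sign with the dye. RTS2 read 1.13 on array 1 and −1.50 on array 2 of ptc3, and it was also positive on array 1 and negative on array 2 of ptc1 (0.72 and −0.71), ptc2 (1.15 and −1.15), ptc4 (0.83 and −1.20) and ptc5 (0.91 and −1.43). YOL106W ran the other way, at −0.49 and 1.03 in ptc3, and was negative on array 1 and positive on array 2 of every other mutant too. YLR162W read 0.93 and −1.08 in ptc3 without that pattern elsewhere, at 0.52 and 0.38 in ptc1, −0.39 and 0.22 in ptc5, and 1.57 on ptc2 array 2. Averaging the 2 arrays left RTS2 without a size-rule call.

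Of the 502 ORFs with a value on 1 ptc3 array alone, 2 were at least 2-fold from wt. BIO5, a transporter of biotin precursors, read 1.06, and YLR434C read −1.10, both on array 1. These ORFs, too, were chosen after their values were seen.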
